A study of Mus musculus with 10 samples.

Results

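The fibroblast growth factor (FGF) genes described here are 10 of the 52227 genes counted in RNA of the cortical hem (CH), the signaling center at the dorsomedial edge of the embryonic cortex. They were chosen by name from the count table and comprise the receptors *Fgfr1*, *Fgfr2* and *Fgfr3*, the ligands *Fgf15*, *Fgf17* and *Fgf18*, the feedback inhibitors *Spry1* and *Spry2*, and the ETS transcription factors *Etv4* and *Etv5*. FGFs are secreted ligands that bind receptor tyrosine kinases together with heparan sulfate and activate the RAS-ERK cascade. Sprouty proteins restrain that cascade, and *Etv4* and *Etv5* are among its best known transcriptional targets. In the early telencephalon, FGFs come mainly from the rostral midline, whereas the CH is a source of Wnt and BMP ligands.

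RNA was sequenced from the CH of 5 wild-type and 5 *Lmx1a-/-* mouse embryos at e13.5, with 1 library per embryo. The mutants were homozygous for the *drJ* allele of *Lmx1a*, a LIM-homeodomain gene, all animals were on a mixed C57Bl6, FVB and CD1 background, and both sexes were used. The CH was cut out by laser capture under bright light, so that each library holds all cell types within the outline, and fewer cells of a type and less RNA per cell cannot be told apart. *Lmx1a* transcripts were present in both genotypes (means of 71.2 ± 18.2 CPM in wild-type and 114 ± 21.0 CPM in mutant embryos, SD, n = 5 each), so their level does not check the labels.

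Libraries held between 19145952 and 36462780 counts on genes, of which mitochondrial genes took 20.6% to 27.6%. Levels are given as CPM, the counts of a gene scaled to the size of its library after TMM normalization. Each gene was tested for a difference between genotypes with the quasi-likelihood (QL) method of edgeR, and a false discovery rate (FDR) under 0.1 over all 21664 genes tested was the threshold, with fold changes given ± their standard error (SE). *Xist* was at 4399 CPM or more in wild-type embryos 2 to 5 and at 1.15 CPM or less in wild-type embryo 1 and all *Lmx1a-/-* embryos, and the summed Y-linked transcripts were the reverse (341 CPM in wild-type embryo 1, 384 to 451 CPM in *Lmx1a-/-* embryos and at most 0.0588 CPM in the others). Sex and genotype therefore cannot be told apart except through wild-type embryo 1. The summed CH markers ranged from 2471 to 4659 CPM in wild type and from 2890 to 4066 CPM in *Lmx1a-/-*, with 7 of 17 markers lower and 2 higher past the threshold. Wild-type embryo 3 stood apart within its genotype, with the lowest CH (2471 CPM) and choroid plexus sums (148 CPM) and the highest cortical neuroepithelium sum (1196 CPM). Wild-type embryo 4 had the lowest cortical neuroepithelium (696 CPM) and neuronal sums (941 CPM) of all 10 libraries. Sums of Cajal-Retzius cell markers (359 to 579 CPM in wild type and 247 to 355 CPM in *Lmx1a-/-*, 4 of 9 lower and 1 higher) and of red blood cell markers (627 to 1479 and 263 to 576 CPM, 0 of 8 passed) did not overlap between the genotypes. Sums of neuronal, endothelial, meningeal and microglial markers did, with 0 of 9, 1 of 9, 2 of 10 and 0 of 8 markers past the threshold. No marker was at 0 in all libraries.

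All 10 FGF genes had enough counts to be tested, and 1 of them, *Fgfr3*, passed the threshold, being higher in *Lmx1a-/-* CH. Over all genes tested, 4.02% passed, 1.72% as higher and 2.29% as lower. The median log2 fold change of the 10 genes was 0.03, with 5 above and 5 below 0, against -0.0049 over all genes tested. An unadjusted p under 0.05 was found for 4 of the 10 (*Fgfr3*, *Spry1*, *Fgf17* and *Fgfr2*) and for 16.4% of all genes tested. For none of the 10 did all embryos of one genotype lie above all of the other, which was the case for 4.44% of all genes tested.

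**Figure D1:**
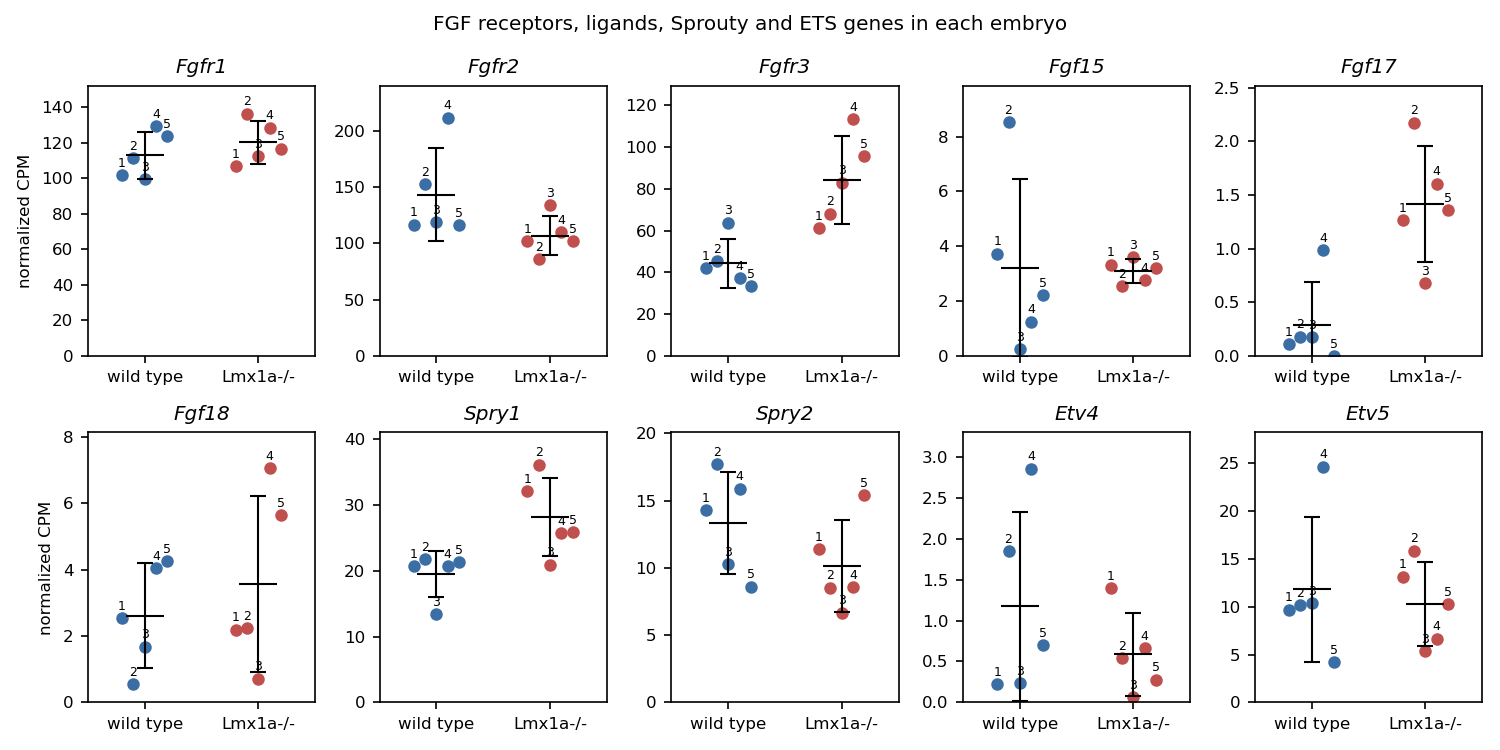
CPM after TMM scaling of the 10 FGF genes (vertical axes, each starting at 0) in each wild-type (blue) and *Lmx1a-/-* (red) embryo, with the embryo number beside each point. Horizontal lines are means and bars the SD of 5 embryos, cut off at 0 where they reach below it. *Fgfr3* is the gene that passed the threshold, with 1 wild-type embryo (63.9 CPM) inside the mutant range of 61.3 to 113 CPM.

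All 3 receptors were well covered by reads, and 1 of them changed. *Fgfr3* (ENSMUSG00000054252, chromosome 5 of GRCm38, 33721674 to 33737068, plus strand), a receptor expressed by cortical progenitors, had 42.0, 45.5, 63.9, 37.3 and 33.4 CPM in wild-type embryos 1 to 5. In *Lmx1a-/-* embryos 1 to 5 it had 61.3, 68.1, 82.9, 113 and 95.8 CPM. The genotypes overlapped only through wild-type embryo 3, which lay above *Lmx1a-/-* embryo 1. The mean rose from 44.4 ± 11.8 to 84.3 ± 21.1 CPM (SD, n = 5 each), with a log2 fold change of 0.92 ± 0.19 (SE, edgeR QL FDR = 0.0237), which placed it 261st of all genes tested by p value. *Fgfr3* passed in each of the 10 fits that left out 1 embryo, with log2 fold changes from 0.79 to 1.09.

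Marker sums of neighboring tissues also differed between the genotypes. Cortical neuroepithelium markers summed to between 696 and 1196 CPM in wild type and between 1105 and 1426 CPM in *Lmx1a-/-*, with *Emx2* and *Nr2e1* higher past the threshold among the 10 markers tested. Of the wild types, embryo 3 had both the highest sum and the highest *Fgfr3*. Of the mutants, embryos 1 and 2 had the highest sums (1426 and 1387 CPM) and the lowest *Fgfr3*. Whether the sums and *Fgfr3* vary together between embryos was not tested. With the mean of these markers as a covariate, the log2 fold change of *Fgfr3* was 0.69 (edgeR QL FDR = 0.354, unadjusted p = 0.0137). Choroid plexus markers summed to between 148 and 507 CPM in wild type and between 161 and 240 CPM in *Lmx1a-/-* (4 of 13 lower), and with their mean as a covariate the log2 fold change was 0.56 (edgeR QL FDR = 0.890). With *Xist* as a covariate it was 1.04 (edgeR QL FDR = 0.395). Between wild-type embryo 1 and the 5 mutants alone it was 1.00, given as a size only, since a single wild type has no spread of its own. The covariates themselves followed the genotype, with r between -0.83 and 0.70 over the 10 libraries.

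The sequence just before the start of *Fgfr3* is shown because this gene is the one that passed the threshold. It covers chr5:33721474-33721673 of GRCm38.p6 on the plus strand, 5′ to 3′, as given by RefSeq, and ends at the base before the annotated gene.
Fgfr3 upstream: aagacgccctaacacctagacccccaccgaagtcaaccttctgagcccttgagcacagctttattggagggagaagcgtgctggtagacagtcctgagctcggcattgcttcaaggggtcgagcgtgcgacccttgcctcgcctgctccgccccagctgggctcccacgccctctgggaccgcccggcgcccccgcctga
It is in lower case throughout because no motif searched on both strands was found in it. The motifs were the CIC octamers TGAATGAA and TGAATGGA, their shared core TGAATG, the ETS site CCGGAAGT and the LIM-homeodomain core TAATTA, held by 1.08%, 1.01%, 10.9%, 2.88% and 4.84% of 32851 windows of 250 bases before RefSeq transcript starts. The core TGAATG overlaps both octamers and was added after a window of *Etv5* had been seen. A window was at hand for 6 of the 10 genes.

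*Fgfr2* (ENSMUSG00000030849, chromosome 7, minus strand) encodes a receptor with isoforms for epithelial and mesenchymal ligands. It had 116, 152, 119, 211 and 116 CPM in wild-type embryos 1 to 5 and 102, 85.9, 134, 110.1 and 102 CPM in *Lmx1a-/-* embryos 1 to 5. Wild-type embryo 4 was the highest of all, and *Lmx1a-/-* embryo 3 lay within the wild-type range. The means were 143 ± 41.2 and 107 ± 17.6 CPM (SD, n = 5 each), with a log2 fold change of -0.42 ± 0.17 (SE, edgeR QL FDR = 0.223). The log2 fold change was -0.24 without wild-type embryo 4, and -0.06, -0.22 and 0.04 with *Xist*, the choroid plexus and the cortical markers as covariates. *Fgfr1* (ENSMUSG00000031565, chromosome 8, 25513654 to 25575718, plus strand), a receptor broadly expressed by neural progenitors, had between 99.3 and 129 CPM in wild type and between 107 and 136 CPM in *Lmx1a-/-*. Its means differed by less than their SDs (113 ± 13.2 and 120.1 ± 12.0 CPM, log2 fold change 0.09 ± 0.10 SE, edgeR QL FDR = 0.700, and from 0.04 to 0.14 without 1 embryo). *Fgfr4* had too few counts to be tested, with at most 1.03 CPM in any embryo.

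Set against each other within each embryo, the receptors differed in make-up between the genotypes. This comparison was chosen after the levels had been seen and is given without a test. Per kilobase of merged exons, *Fgfr3* made up 21.4%, 19.6%, 29.3%, 13.4% and 16.4% of the reads of the 3 receptors in wild-type embryos 1 to 5. In *Lmx1a-/-* embryos 1 to 5 it made up 29.3%, 30.1%, 32.2%, 40.1% and 38.2%. Wild-type embryo 3 and *Lmx1a-/-* embryo 1 thus had about the same share, and all other mutants were above all other wild types. The share of *Fgfr2* lay between 37.7% and 52.8% in wild type and between 26.3% and 36.1% in *Lmx1a-/-*, without overlap. That of *Fgfr1* was 36.6% ± 4.46 and 35.8% ± 4.80 (SD, n = 5 each). Since the 3 shares have a fixed sum, a higher share of *Fgfr3* by itself lowers the others. The level of *Fgfr2* overlapped between the genotypes and did not pass (edgeR QL FDR = 0.223).

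**Figure D2:**
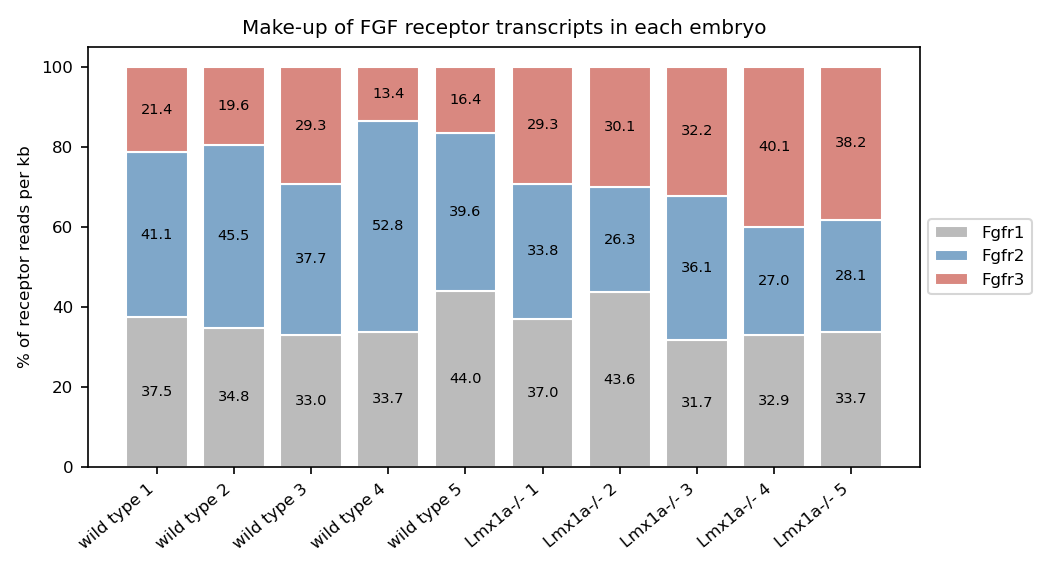
Stacked bars give, for each embryo, the percent of the length-scaled reads of *Fgfr1* (grey), *Fgfr2* (blue) and *Fgfr3* (red), summing to 100 in each bar. *Fgfr3* takes 13.4% to 29.3% in the wild-type bars and 29.3% to 40.1% in the *Lmx1a-/-* bars. *Fgfr2* takes a smaller part in the mutant than in the wild-type bars.

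The ligands had low counts, and none passed the threshold. *Fgf17* (ENSMUSG00000022101, chromosome 14, 70636203 to 70642268, minus strand), of the same subfamily as *Fgf8*, was counted 3, 4, 6, 19 and 0 times in wild-type embryos 1 to 5. It was counted 38, 40, 20, 58 and 39 times in *Lmx1a-/-* embryos 1 to 5. All mutants had more counts than every wild type, but scaled for depth wild-type embryo 4 (0.986 CPM) lay above *Lmx1a-/-* embryo 3 (0.681 CPM). The means were 0.291 ± 0.395 and 1.42 ± 0.542 CPM (SD, n = 5 each), with a log2 fold change of 2.33 ± 0.76 (SE, edgeR QL FDR = 0.143). Without wild-type embryo 4 the log2 fold change was 3.53 ± 0.68 (SE) and the gene passed (edgeR QL FDR = 0.0199). It also passed with edgeR's likelihood ratio test (FDR = 0.0421), with DESeq2 (adjusted p = 0.0296) and with edgeR's newer dispersion method (FDR = 0.0477). With the choroid plexus markers as a covariate the log2 fold change was 0.93 (edgeR QL FDR = 0.971), and with the cortical markers 3.77 (edgeR QL FDR = 0.286). Genes listed as markers of septum, ventral telencephalon and antihem summed to between 142 and 221 CPM in wild type. In *Lmx1a-/-* they summed to between 269 and 394 CPM, with *Zic4* and *Six3* higher among 9 tested. The Zic genes are also dorsal midline factors, so *Zic4* does not mark these tissues alone. The part of the listed genes in the levels of *Fgf17* was not tested.

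*Fgf18* (ENSMUSG00000057967, chromosome 11, 33117430 to 33147400, minus strand), also of the *Fgf8* subfamily, ranged from 0.541 to 4.25 CPM in wild type (median 2.54) and from 0.715 to 7.06 CPM in *Lmx1a-/-* (median 2.23). Its log2 fold change was 0.46 ± 0.58 (SE, edgeR QL FDR = 0.753), so that embryos of one genotype differed from each other by more than the genotypes did. Single embryos moved it, to 0.19 and 0.70 without wild-type embryos 2 and 5 and to 0.71, 0.04 and 0.24 without *Lmx1a-/-* embryos 3, 4 and 5. *Fgf15* (ENSMUSG00000031073, chromosome 7, 144896531 to 144900953, plus strand), the mouse counterpart of a human endocrine FGF and a gene of embryonic neuroepithelium, had 3.73, 8.52, 0.235, 1.25 and 2.22 CPM in wild-type embryos 1 to 5. In *Lmx1a-/-* embryos 1 to 5 it had 3.32, 2.55, 3.61, 2.77 and 3.20 CPM. The means were 3.19 ± 3.25 and 3.09 ± 0.427 CPM (SD, n = 5 each, log2 fold change -0.04 ± 0.60 SE, edgeR QL FDR = 0.985). All mutant values lay inside the spread of the wild types. Whether the spread differs between genotypes was not tested.

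Of the Sprouty genes, *Spry1* (ENSMUSG00000037211, chromosome 3, 37639947 to 37644598, plus strand) had 20.7, 21.7, 13.4, 20.7 and 21.3 CPM in wild-type embryos 1 to 5. In *Lmx1a-/-* embryos 1 to 5 it had 32.1, 36.1, 20.9, 25.7 and 25.9 CPM. Of the mutants, embryo 3 lay within the wild-type range and the others above it. The means were 19.6 ± 3.48 and 28.2 ± 5.96 CPM (SD, n = 5 each), with a log2 fold change of 0.53 ± 0.17 (SE), which did not pass (edgeR QL FDR = 0.130). It passed without *Lmx1a-/-* embryo 3 (log2 fold change 0.61, edgeR QL FDR = 0.0738), with DESeq2 (adjusted p = 0.0455) and with edgeR's likelihood ratio test (FDR = 0.0817). The log2 fold change fell to 0.41 without wild-type embryo 3 (edgeR QL FDR = 0.180) and to 0.42 without *Lmx1a-/-* embryo 2 (edgeR QL FDR = 0.254). With *Xist*, choroid plexus and cortical markers in turn as covariates it was 0.36, 0.71 and 0.65 (edgeR QL FDR = 0.768, 0.846 and 0.434).

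*Spry2* (ENSMUSG00000022114, chromosome 14, 105891947 to 105896819, minus strand) differed from *Spry1* in the sign of its change, with neither past the threshold. It ranged from 8.61 to 17.7 CPM in wild type (median 14.3) and from 6.68 to 15.4 CPM in *Lmx1a-/-* (median 8.58). The log2 fold change was -0.40 ± 0.25 (SE, edgeR QL FDR = 0.463). Whether the 2 genes differ in their change was not tested.

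The ETS genes varied more between embryos than between genotypes. *Etv5* (ENSMUSG00000013089, chromosome 16, 22381309 to 22439719, minus strand) had 9.71, 10.1, 10.4, 24.6 and 4.21 CPM in wild-type embryos 1 to 5 and 13.2, 15.9, 5.35, 6.67 and 10.3 CPM in *Lmx1a-/-* embryos 1 to 5. The genotypes overlapped over most of the range, and wild-type embryo 4 was the highest (log2 fold change -0.20 ± 0.40 SE, edgeR QL FDR = 0.853). Without that embryo the log2 fold change was 0.24, on the other side of 0. *Etv4* (ENSMUSG00000017724, chromosome 11, 101769742 to 101785371, minus strand) had between 2 and 55 counts in a library, with 0.224 to 2.85 CPM in wild type and 0.0681 to 1.40 CPM in *Lmx1a-/-* (log2 fold change -0.96 ± 0.79 SE, edgeR QL FDR = 0.598). Its log2 fold change was -0.33 without wild-type embryo 4 and -1.57 (edgeR QL FDR = 0.378) without *Lmx1a-/-* embryo 1.

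Levels of different genes were compared per kilobase of merged exons. In wild-type CH, *Fgfr2* (13.8 ± 3.99 CPM per kb, SD, n = 5) and *Fgfr1* (11.4 ± 1.33) led and did not differ beyond their spread. *Spry1* (6.73 ± 1.20), *Spry2* (6.39 ± 1.83) and *Fgfr3* (6.20 ± 1.65) followed at nearly equal levels. *Etv5* (2.88 ± 1.86 CPM per kb), *Fgf18* (2.20 ± 1.33) and *Fgf15* (1.04 ± 1.06) were lower and overlapped each other. *Etv4* (0.378 ± 0.370 CPM per kb) and *Fgf17* (0.172 ± 0.234) were the lowest, with spreads as large as their means. In *Lmx1a-/-* CH, *Fgfr3* stood at 11.8 ± 2.95 CPM per kb, beside *Fgfr1* (12.2 ± 1.21) and *Fgfr2* (10.3 ± 1.70), without a separation beyond their spread. Among the 10 genes in wild type, *Fgfr3* ranked 5th by merged exons, 3rd by longest transcript and 4th by coding length. These closeness statements depend on the length used. By longest transcript, wild-type *Fgfr3* had 10.5 ± 2.78 CPM per kb, *Spry1* 7.05 ± 1.25 and *Spry2* 6.39 ± 1.83. By coding length, mutant *Fgfr1* had 45.2 ± 4.52 CPM per kb, *Fgfr2* 38.0 ± 6.25 and *Fgfr3* 32.8 ± 8.20.

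Besides the 10 genes, 96 further genes of FGF signaling were listed by role, of which 84 were tested, 1 was higher and 2 were lower in *Lmx1a-/-* CH past the threshold. These lists were written with earlier results of the data known. Over all genes tested, 1.72% were higher and 2.29% lower past the threshold, and 16.4% had an unadjusted p under 0.05. Of 15 further secreted FGFs, 6 were tested, 0 passed (1 had an unadjusted p under 0.05), and the median log2 fold change was -0.12. *Fgf9* had 1.31, 1.53, 0.235, 11.8 and 0.296 CPM in wild-type embryos 1 to 5 and 0 to 0.435 CPM in *Lmx1a-/-* embryos. Its log2 fold change of -3.43 ± 1.07 (SE, edgeR QL FDR = 0.125) was -1.58 (edgeR QL FDR = 0.435) without wild-type embryo 4. *Fgf9* passed without wild-type embryo 3 (log2 fold change -3.74, edgeR QL FDR = 0.0697) or 5 (-3.73, edgeR QL FDR = 0.0937), with the likelihood ratio test (FDR = 0.0320), with DESeq2 (adjusted p = 0.0586) and without the filter on low counts (edgeR QL FDR = 0.0915). *Fgf1*, which binds all FGF receptors, had 1.47 ± 0.744 and 0.725 ± 0.589 CPM (SD, n = 5 each, log2 fold change -1.01, edgeR QL FDR = 0.392), and a log2 fold change of -1.64 without *Lmx1a-/-* embryo 3. *Fgf8*, the main ligand of the rostral midline, was too low to be tested, at 0 to 1.23 CPM in wild type and 0 to 0.272 CPM in *Lmx1a-/-*. The intracellular FGFs, which act on voltage-gated sodium channels, gave 0 calls of 4 tested (1 with an unadjusted p under 0.05). *Fgf13* had 53.2 ± 6.84 and 62.97 ± 7.31 CPM (edgeR QL FDR = 0.287) and *Fgf14* 1.82 ± 0.433 and 2.43 ± 0.926 CPM (edgeR QL FDR = 0.607).

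Among 7 tested receptors and partners, *Fgfbp3*, which encodes a secreted FGF-binding protein, was higher in *Lmx1a-/-* CH. It had 6.79, 12.2, 10.4, 8.51 and 9.97 CPM in wild-type embryos 1 to 5 and 32.1, 28.8, 16.2, 16.1 and 17.1 CPM in *Lmx1a-/-* embryos 1 to 5. Every mutant lay above every wild type, and the mean rose from 9.58 ± 2.04 to 22.1 ± 7.76 CPM (SD, n = 5 each), with a log2 fold change of 1.20 ± 0.23 (SE, edgeR QL FDR = 0.0158). *Fgfrl1*, which encodes a receptor without a kinase domain, also had all mutants (7.70 to 11.7 CPM) above all wild types (6.20 to 6.97 CPM), without passing the threshold (log2 fold change 0.49 ± 0.16 SE, edgeR QL FDR = 0.138). It lies outside the rule for named genes and was picked after its values were seen. The genotypes did not overlap for 2 of the 7 receptors and partners, and for 4.44% of all genes tested.

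Of 17 heparan sulfate enzymes, 1 passed and the median log2 fold change was -0.10. *Sulf1*, which encodes a sulfatase that trims sulfate groups from extracellular heparan sulfate, had 859, 1202, 318, 639.8 and 1167 CPM in wild-type embryos 1 to 5 and 208, 199, 364, 385 and 283 CPM in *Lmx1a-/-* embryos 1 to 5. Wild-type embryo 3 lay within the mutant range and the other wild types above it. The mean fell from 837 ± 371 to 288 ± 85.8 CPM (SD, n = 5 each), with a log2 fold change of -1.54 ± 0.31 (SE, edgeR QL FDR = 0.0209). With the choroid plexus markers as a covariate the log2 fold change was -0.09 (edgeR QL FDR = 0.991).

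Of 21 adaptors and kinases between receptor and ERK, 0 passed (2 had an unadjusted p under 0.05). *Sos1*, which encodes an activator of RAS, had 135 ± 12.9 and 152 ± 5.999 CPM (SD, n = 5 each, log2 fold change 0.17 ± 0.08 SE, edgeR QL FDR = 0.284). *Hras* had 19.3 ± 3.62 and 14.5 ± 2.93 CPM (SD, n = 5 each, edgeR QL FDR = 0.245). Of 14 further target genes, 0 passed (3 had an unadjusted p under 0.05), with a median log2 fold change of -0.40. The ETS gene *Etv1* had 23.7 ± 9.97 and 12.0 ± 5.30 CPM (SD, n = 5 each, log2 fold change -0.98, edgeR QL FDR = 0.167), and the Fos family gene *Fosl2* 13.2 ± 11.4 and 4.07 ± 2.60 CPM (-1.69, edgeR QL FDR = 0.142). *Etv1* passed without wild-type embryo 3 (-1.15, edgeR QL FDR = 0.0853) and with the likelihood ratio test (FDR = 0.0866). It also passed with a replicate block (edgeR QL FDR = 0.00887), although embryos with the same number did not deviate together and are not paired by it. With the choroid plexus markers as a covariate the log2 fold change of *Etv1* was -0.19. *Fosl2* passed with the likelihood ratio test (FDR = 0.0498) and with DESeq2 (adjusted p = 0.0958), and without wild-type embryo 4 its log2 fold change was -1.01 (edgeR QL FDR = 0.330).

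**Figure D3:**
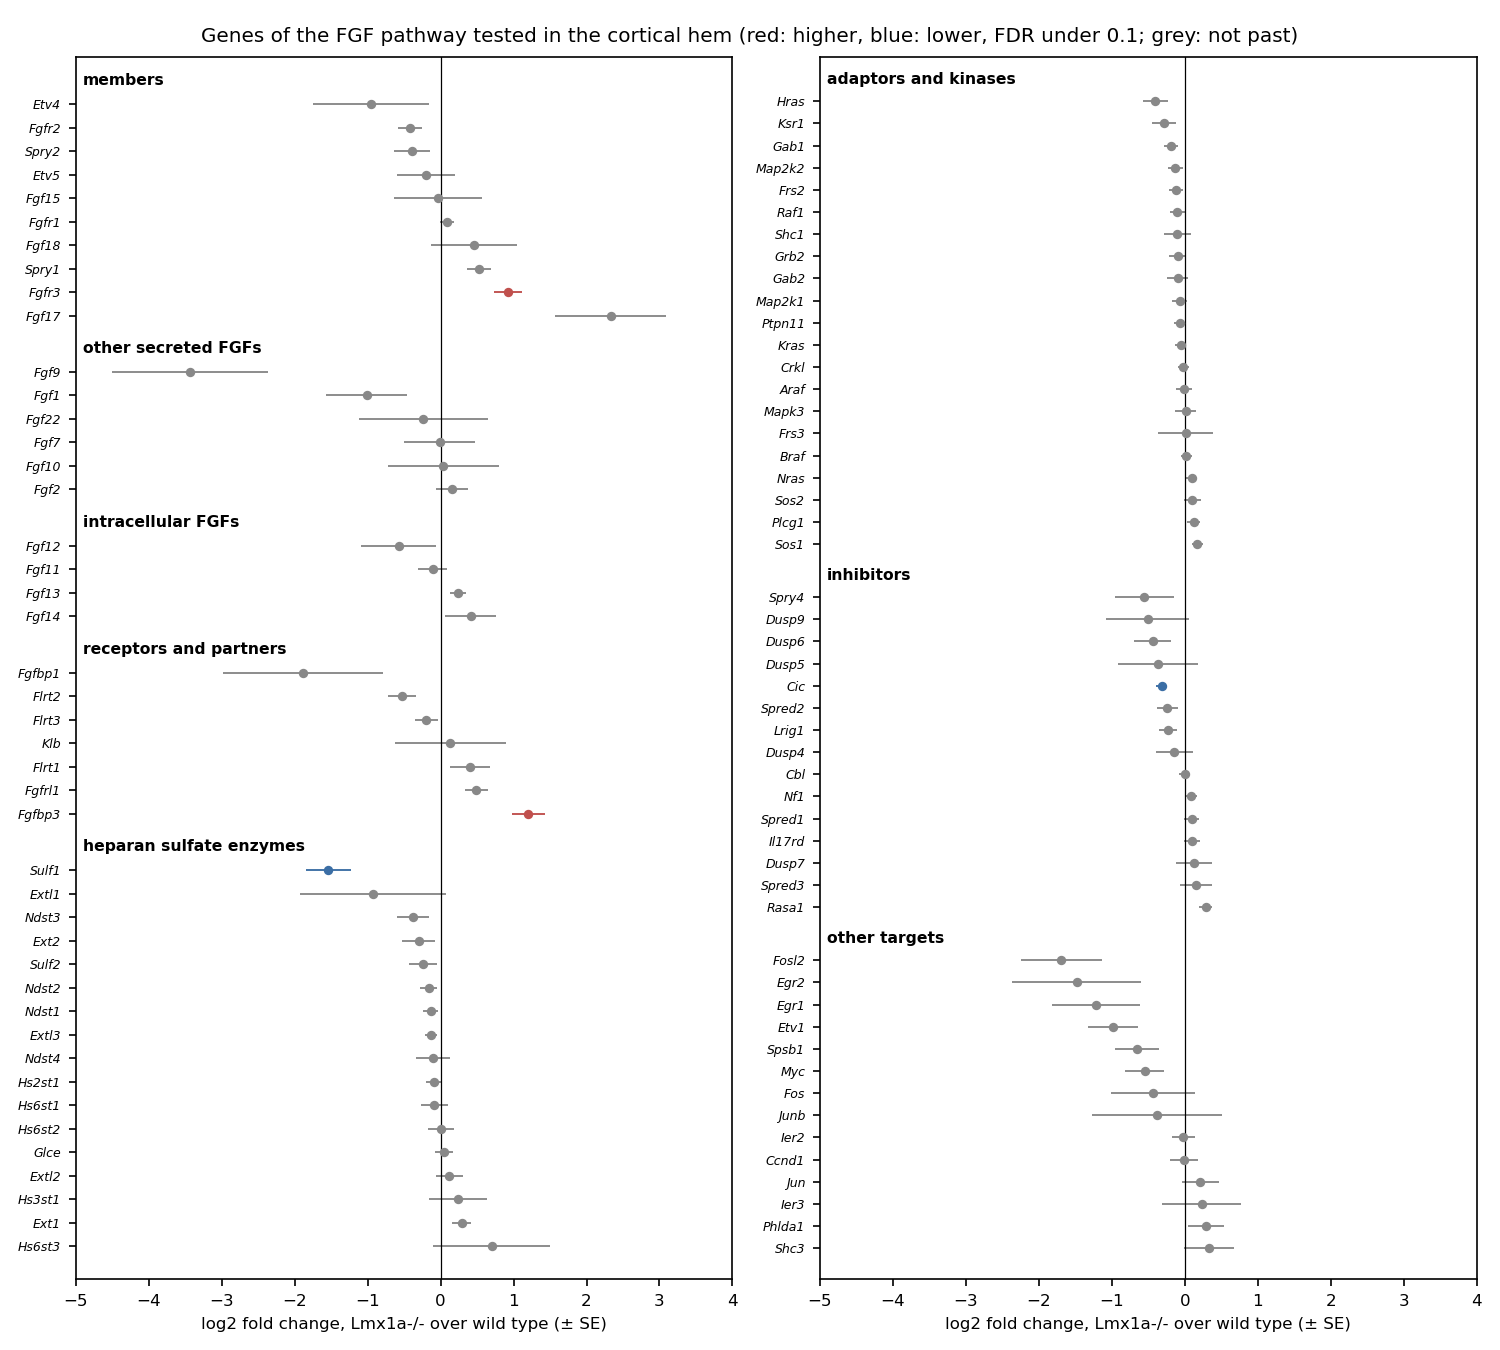
Fitted log2 fold change (horizontal axes, *Lmx1a-/-* over wild type, bars ± SE) of the 10 FGF genes, headed members, and the 84 further tested genes grouped by role. *Fgfr3* and *Fgfbp3* are higher (red) and *Sulf1* and *Cic* lower (blue) past the threshold, and the other genes (grey) did not pass.

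Of 15 tested inhibitors of FGF and ERK signaling, 1 passed. *Cic* encodes capicua, a transcriptional repressor of the *Etv* genes that ERK signaling relieves. It had 88.6, 86.4, 88.8, 83.0 and 86.2 CPM in wild-type embryos 1 to 5 and 75.9, 69.0, 74.7, 62.9 and 65.7 CPM in *Lmx1a-/-* embryos 1 to 5. Every wild type lay above every mutant, and the mean fell from 86.6 ± 2.36 to 69.7 ± 5.61 CPM (SD, n = 5 each), with a log2 fold change of -0.31 ± 0.07 (SE, edgeR QL FDR = 0.0456). The change is small, and its call was lost while its size held when libraries were scaled by size only (log2 fold change -0.30, edgeR QL FDR = 0.112) and without *Lmx1a-/-* embryo 4 (-0.28, edgeR QL FDR = 0.114), *Lmx1a-/-* embryo 5 (-0.29, edgeR QL FDR = 0.116) or wild-type embryo 1 (-0.31, edgeR QL FDR = 0.1004). With any of the 3 covariates none of *Fgfbp3*, *Sulf1* and *Cic* passed. With *Xist*, choroid plexus and cortical markers in turn, the log2 fold change of *Fgfbp3* was 1.61, 1.099 and 0.97 and that of *Cic* -0.34, -0.27 and -0.35. That of *Sulf1* was -1.49 with *Xist* and -0.96 with the cortical markers. Between wild-type embryo 1 and the mutants alone the log2 fold changes of *Fgfbp3*, *Sulf1* and *Cic* were 1.69, -1.58 and -0.35. Only sizes are given for this comparison, since a single wild type has no spread of its own.

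Capicua is known to bind sequences with the core TGAATG, and 1 of the 8 windows at hand for the 10 genes held this core. It precedes a transcript start inside *Etv5* and covers chr16:22438369-22438618 of GRCm38.p6, printed 5′ to 3′ on the minus strand as given by RefSeq. Capitals mark the core, found at -242 and -198 on the strand of the gene and at -129 on the other strand, where the last base before the start is -1.
Etv5 upstream of the internal start: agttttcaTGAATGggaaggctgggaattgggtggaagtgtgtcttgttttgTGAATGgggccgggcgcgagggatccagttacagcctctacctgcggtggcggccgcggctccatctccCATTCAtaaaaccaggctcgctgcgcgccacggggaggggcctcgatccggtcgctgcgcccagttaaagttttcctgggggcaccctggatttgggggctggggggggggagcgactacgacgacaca
A match of letters is a description, and 10.9% of all windows held the core at least once. Neither CIC octamer was found in the 8 windows, and the core was added to the search after this *Etv5* window had been seen. As given above, *Etv5* itself did not pass (edgeR QL FDR = 0.853).

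Some reads could not be assigned with certainty, since the strand setting of the counting is not named in the sources used here. The exons of *Fgfr3* share 998 bases (13.9%) with *G630022F23Rik* on the other strand, which had 5 to 79 counts in a library against 719 to 4098 for *Fgfr3*. *Spry1* shares 710 bases (24.4%) with *Gm42922* (at most 8 counts), and *Fgf15* 761 bases (24.9%) with *Gm26793* (at most 21 counts). In the annotation used here *Fgfr2* spans chromosome 7, 130162451 to 133123350, which shares 314 exon bases with *Ctbp2*, whereas RefSeq ends the gene at 130266808.

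Apart from genotype, the 10 genes varied between embryos of the same group. After the genotype mean was removed, 45 pairs were compared over the 10 libraries by permutation within genotype (100000 resamples, two-sided). Of these, 0 pairs passed a Benjamini-Hochberg adjusted p of 0.1. An unadjusted permutation p under 0.05 was found for 2 pairs, about as many as 45 unrelated pairs would give. *Fgf17* and *Etv5* had Pearson's r = 0.887 (permutation p = 0.00709, adjusted p = 0.319) and Spearman's rho = 0.758 (permutation p = 0.0180), and r = 0.672 without the 2 libraries farthest from the median of *Fgf17*. *Fgfr3* and *Spry1* had r = -0.74 (permutation p = 0.0358, adjusted p = 0.761) and rho = -0.77 (permutation p = 0.0262), and r = -0.56 without the 2 farthest libraries. The closest partners of the remaining genes had r between 0.172 (*Fgf17* for *Fgfr3*) and 0.661 (*Spry1* and *Etv4* for each other). Both genes of each pair come from the same library and share its depth.

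Wild-type embryo 4 held the highest level over all 10 libraries of 7 genes, which were picked after their values were seen and are given without a test. *Fgf9* had 11.8 CPM there against a median of 0.801 CPM in the other wild types, and *Etv4* 2.85 against 0.469 CPM. *Fosl2* had 33.3 against 8.08 CPM, the Sprouty gene *Spry4* 11.9 against 3.22 CPM, and *Etv5* 24.6 against 9.93 CPM. *Fgfr2* had 211 against 118 CPM and *Dusp6*, an ERK phosphatase gene, 24.9 against 14.6 CPM. The levels were from 1.70 times (*Dusp6*) to 14.8 times (*Fgf9*) the median of the other wild types. Margins over the next library were smaller for some, with *Dusp6* at 22.3 CPM and *Etv4* at 1.85 CPM in wild-type embryo 2. *Fgf17*, *Fgf18*, *Spry1* and *Spry2* were not among the 7 genes. Embryo 4 also had the lowest cortical neuroepithelium (696 CPM) and neuronal marker sums (941 CPM) of all 10 libraries. The part of these tissues in its levels was not tested. Among the wild types, embryo 4 was the highest for 24.7% of all genes tested. Of 33 tested inhibitors and targets it was the highest for 12 (36.4%) and the lowest for 5.

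**Figure D4:**
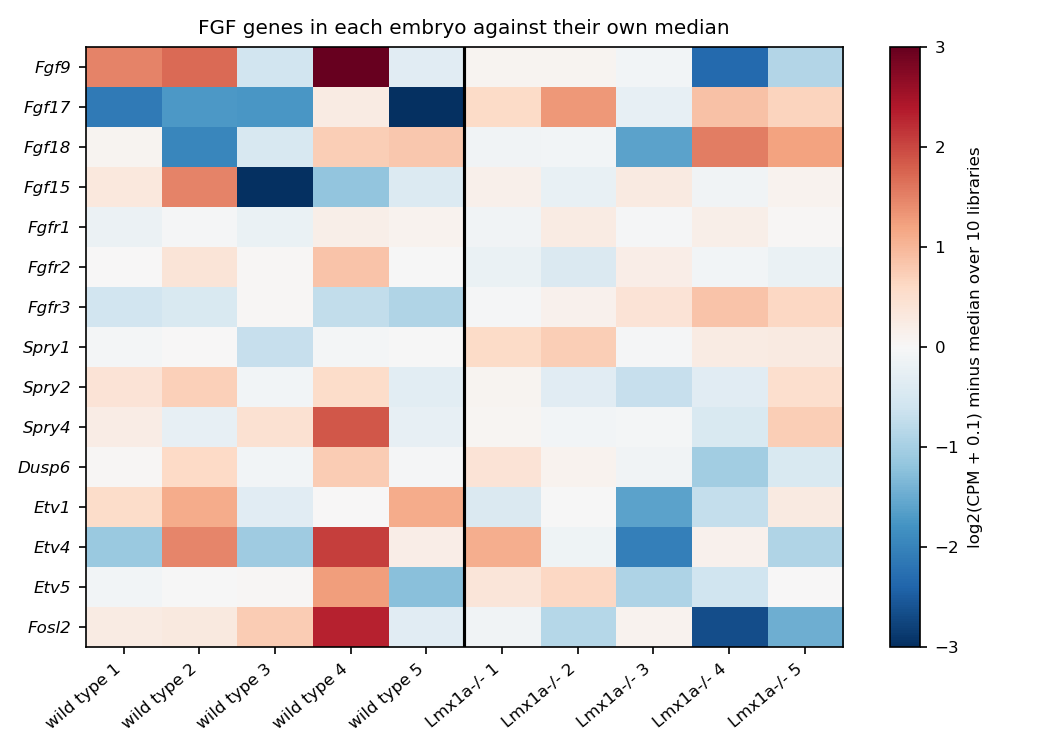
Each row is an FGF pathway gene and each column an embryo, with wild type left and *Lmx1a-/-* right of the line. Color gives log2(CPM + 0.1) minus the median of the gene over 10 libraries, and values beyond 3 in either direction take the end color. The column of wild-type embryo 4 is the reddest for *Fgf9*, *Fosl2*, *Etv4*, *Spry4* and *Etv5*, while *Fgfr3* is redder in the mutant columns.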

How the data were processed

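RNA of the laser-captured CH was made into libraries with the SMARTER kit and sequenced by the authors, who used Trimmomatic for trimming, STAR 2.7.1a for alignment to GRCm38 and HTSeq 0.11.2 for counting reads per Ensembl gene, as per the submitters' processing notes and the paper's methods. The deposited values are these raw counts without normalization. Of 52508 rows, 281 exact repeats were dropped, and symbols were matched through GENCODE M21 for 52135 of 52227 genes.

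A gene was tested if 3 or more libraries had 10 or more counts, with edgeR 4.0.16 in R 4.3.3 (TMM scaling, trended dispersion, quasi-likelihood test without covariates, Benjamini-Hochberg FDR under 0.1), which was checked on simulated counts. DESeq2 1.42.0 gave an alternative. SEs were derived from the log2 fold change and its F statistic. Deviations for correlations used log2 CPM with a prior count of 0.5.

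The 10 genes, the pathway lists and the marker lists were chosen with earlier results of these data known. The rule for named genes took the 10, every gene past the threshold in each pathway list or otherwise the 2 with the smallest p, *Lmx1a*, *Xist*, the Y-linked genes and up to 3 genes of a marker list. *Fgfr4*, *Fgf8*, *Fgfrl1*, *Spry4*, *Dusp6* and the genes that overlap the 10 lie outside it and were named with their values known. A gene of the pathway lists was left out and is not reported. *Anos1* and *Spry3* of the lists were not matched.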

Additional observations from a re-analysis of the deposited data

Results flagged for a closer look

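A sample far from the other 4 of its group was found in 6 of 42 groups tested over 21 named genes (gap to the nearest sample over the range of the group, above 0.71 for groups of 5). Chance alone gives about 1 in 20 for normally distributed values. That rate need not hold here, since several genes had few counts and some were named for a small p in these data. In wild-type embryo 4, *Fgf17* stood at 0.986 CPM (at most 0.180 CPM in the other wild types), *Fgf9* at 11.8 CPM (at most 1.53 CPM) and *Fosl2* at 33.3 CPM (at most 11.3 CPM). *Spry1* stood at 13.4 CPM in wild-type embryo 3, below the 20.7 CPM or more of the other wild types. *Fgf1* stood at 1.74 CPM in *Lmx1a-/-* embryo 3 (at most 0.598 CPM in the other mutants), and *Sos1* at 141 CPM in the same embryo (at least 153 CPM in the other mutants).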

How the results depend on the processing

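Numbers of lower and higher genes changed as follows. Over all genes they were 976 and 790 with DESeq2, 805 lower with the likelihood ratio test, 248 higher with a replicate block, 24 and 1 with the *Xist* covariate, 8 and 4 with the choroid plexus covariate, 55 and 39 with the cortical neuroepithelium covariate, 86 and 44 with Y-linked libraries only, and 251 and 197 at an FDR under 0.05. Of the 10 FGF genes, 3 were higher with DESeq2 and with the likelihood ratio test, 2 with the newer dispersion method and with the replicate block (which added *Spry1*, FDR = 0.0767), and 0 with each covariate and with Y-linked libraries only. Of the further pathway genes, 1 was lower and 2 were higher with library size only, 5 and 3 with DESeq2, 5 lower with the likelihood ratio test, 2 higher with at least 50 counts in 5 libraries and with the newer dispersion method, 0 and 0 with each of the 3 covariates, and 0 higher with Y-linked libraries only. Without 1 embryo each, the ranges were 261 to 604 lower and 190 to 455 higher over all genes, 0 to 0 and 1 to 2 of the 10, 1 to 5 and 1 to 2 of the further genes, and 0 to 1 correlated pairs. *Fgfr3* ranked 3 or 4 in level with other gene lengths. These log2 fold changes changed sign. *Fgf15* had 0.054 with the newer dispersion method, 0.58 with the replicate block, 3.57 with the choroid plexus and 0.82 with the cortical covariate, and from -0.35 to 0.73 without 1 embryo (above 0 at 0.027, 0.73 and 0.020 without wild-type embryo 1, wild-type embryo 2 and *Lmx1a-/-* embryo 2). *Etv4* had 1.42 with *Xist*, 0.90 with the cortical covariate and 1.38 with Y-linked libraries. *Etv5* had 0.28 with the cortical covariate, 0.069 with Y-linked libraries, and from -0.42 to 0.24 without 1 embryo (above 0 without wild-type embryo 4). *Fgf1* had 0.14 with *Xist* and 0.029 with Y-linked libraries. With the choroid plexus covariate *Fgf18* had -0.068 and *Spry2* 0.050, and with the cortical covariate *Fgfr2* had 0.042 and *Fgf9* 0.040. The cause was not tested. *Fgf17* and *Etv4* were not tested at 50 counts. Embryos with the same number did not deviate together (correlations from -0.08 to 0.01), so the numbers do not pair them. The 0 to 58 counts of *Fgf17* and 2 to 55 of *Etv4* limit their precision.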
